A study of Homo sapiens with 6 samples.

Results

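EMP1, EMP2, EMP3 and PMP22 form a small family of membrane proteins, and all 4 symbols were found among the 59074 genes of the deposited table. The glioblastoma lines, namely LN-229, T98G and U251, were sequenced as bulk RNA collected 72 h after transfection with a pool of small interfering RNAs (siPOOL). The siHOTAIRM1 cells received the pool against HOTAIRM1, a long non-coding RNA transcribed from the HOXA cluster, and the siControl cells received a non-target pool, so the cells of both groups were transfected. Each cell line gave 1 library per condition, 6 in all, and the sample titles spell LN-229 as LNT229. The 4 genes were selected on earlier results of these same data, in which EMP1 had the 5th lowest mean change of 14294 genes, and their knock-down changes are therefore given as descriptions with no p-value.

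The 3 epithelial membrane proteins and the peripheral myelin protein PMP22 each cross the membrane 4 times and belong to the same superfamily as the claudins of tight junctions. PMP22 is a major protein of compact myelin in peripheral nerve, and duplication or loss of 1 copy of its gene causes inherited neuropathies. EMP2 regulates integrins and focal adhesion kinase at the plasma membrane. EMP1 and EMP3 are present in many tissues, and EMP3 has been studied in glioma together with CD44 and the TGF-beta receptors.

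The proteins translated from the canonical transcripts (GENCODE 44) were 157 residues long for EMP1, 167 for EMP2, 163 for EMP3 and 160 for PMP22. Identity over aligned residues ran from 35.9% between EMP1 and EMP3 to 47.4% between EMP1 and EMP2. PMP22 shared 46.5% with EMP2, 44.7% with EMP3 and 41.3% with EMP1. The first extracellular loop of this superfamily carries a tryptophan ahead of a cysteine, and the coding stretch around the first such pair of each protein is printed to show what the 4 transcripts share. Capitals mark the codons of the tryptophan (TGG) and the cysteine (TGT or TGC), each window has 30 bases and lies in exon 3 of 5, and positions are on hg38.
EMP1, chr12:13213512-13213541, plus strand: gtaggtcttTGGaaaaacTGTaccaacatt
EMP2, chr16:10543604-10543633, minus strand: gcagatgtcTGGagaataTGTaccaacaac
EMP3, chr19:48327551-48327580, plus strand: ctgaatctcTGGtacgacTGCacgtggaac
PMP22, chr17:15259137-15259166, minus strand: actgatctcTGGcagaacTGTagcacctct
The tryptophan is residue 41 of EMP1, 40 of EMP3 and 39 of both EMP2 and PMP22. EMP3 was the only one of the 4 with TGC as the cysteine codon. The genes lie on 4 chromosomes, EMP1 at chr12:13196723-13219941, EMP2 at chr16:10528422-10580632, EMP3 at chr19:48321509-48330553 and PMP22 at chr17:15229773-15272292, so none is a neighbour of another.

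Depth ran from 52.3 to 104 M reads per library, and HOTAIRM1 itself was at 0.623 to 3.49 CPM (read counts divided by the library's depth in M reads). HOTAIRM1 was lower in the siHOTAIRM1 library of every cell line, with differences of -52.2% (LN-229), -38.5% (T98G) and -51.1% (U251). Its mean change was -0.54 on the log2(CPM + 1) scale (SE 0.12, n = 3 cell lines, limma with Benjamini-Hochberg adjustment, adjusted p = 0.0146). All SE values here are those of limma, which draws the spread of each gene toward a trend over all tested genes. HOTAIRM1 kept this direction but lost the call when each library was centred on its median (adjusted p = 0.170) or the listed genes were rescaled (adjusted p = 0.204). The call was also lost without LN-229 (adjusted p = 0.0711) or T98G (0.435), and held without U251 (0.00988). The listed genes summed to 42.9 to 67.2% of the full CPM scale, lowest in the T98G siHOTAIRM1 library and highest in the U251 siControl library. The tested genes had a median change of 0.01 for LN-229, -0.19 for T98G and -0.03 for U251, so changes in T98G are also given relative to this shift. The glioma markers VIM (254 to 1794 CPM) and CD44 (304 to 819 CPM) were high in all 6 libraries. T98G carried at most 0.956 CPM of NES and 0.0146 CPM of SOX2, and GFAP exceeded 1 CPM only in U251. SOX9 went the other way, at 10.3 and 11.5 CPM in T98G, 31.6 and 47.1 CPM in U251 and at most 0.0290 CPM in LN-229. S100B was at 21.1 and 24.7 CPM in LN-229 and had no reads in T98G. The summed markers of immune cells (3 genes), endothelial cells (2 genes) and epithelial cells (3 genes) stayed at or below 7.89, 2.89 and 0.275 CPM.

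All 4 members were well above detection in every library. Their levels rested on 761 to 19147 reads each, while a level of 3 reads, taken as the smallest detectable, was 0.0289 to 0.0574 CPM. The intervals beside levels are 95% Wilson intervals on read numbers, and all intervals here cover counting error only. PMP22 had the widest range of the family, 9.56-fold from its lowest to its highest library, followed by EMP2 with 5.38-fold, EMP1 with 4.11-fold and EMP3 with 1.99-fold.

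PMP22 was highest in LN-229, intermediate in U251 and lowest in T98G. Its level was 141 CPM in LN-229 siControl and 184 CPM in LN-229 siHOTAIRM1. In U251 it was 69.2 CPM in siControl and 92.8 CPM in siHOTAIRM1. In T98G it was 21.3 CPM (20.2 to 22.4) in siControl and 19.3 CPM (18.3 to 20.3) in siHOTAIRM1. The libraries of the 3 cell lines did not overlap, and the order LN-229, U251, T98G held in both conditions. With the siPOOL as a covariate, PMP22 in LN-229 exceeded T98G by 2.93 on the log2(CPM + 1) scale (SE 0.18, 7.64-fold; limma adjusted p = 3.38e-16). LN-229 exceeded U251 by 1.001 (SE 0.18, 2.001-fold; limma adjusted p = 1.73e-05). The difference of T98G minus U251 was -1.93 on the same scale (SE 0.18; limma adjusted p = 2.96e-11).

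EMP2 separated U251 from the other lines. It was 68.6 CPM in LN-229 siControl, 78.4 CPM in LN-229 siHOTAIRM1, 60.9 CPM in T98G siControl and 55.2 CPM in T98G siHOTAIRM1. In U251 it was 14.6 CPM (13.6 to 15.6) in siControl and 14.9 CPM (14.2 to 15.7) in siHOTAIRM1, both under every library of the other lines. The difference from U251 was 2.24 for LN-229 (SE 0.17, 4.72-fold; limma adjusted p = 1.45e-13) and 1.91 for T98G (SE 0.17, 3.75-fold; limma adjusted p = 1.04e-11), in log2(CPM + 1). LN-229 was 0.33 above T98G (SE 0.17), and this pair did not pass the test (limma adjusted p = 0.104), although its libraries did not overlap.

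EMP3 had the narrowest range, from 21.8 to 43.4 CPM. It was 23.2 CPM in LN-229 siControl, 23.6 CPM in LN-229 siHOTAIRM1, 43.4 CPM in T98G siControl, 33.4 CPM in T98G siHOTAIRM1, 30.6 CPM in U251 siControl and 21.8 CPM in U251 siHOTAIRM1. Both T98G libraries were higher than the other 4. The LN-229 minus T98G difference was -0.68 on the log2(CPM + 1) scale (SE 0.18; limma adjusted p = 0.00144). T98G exceeded U251 by 0.54 (SE 0.18; limma adjusted p = 0.00802). LN-229 and U251 overlapped and did not pass the test, with a difference of -0.14 (SE 0.18; limma adjusted p = 0.516). The calls for T98G rested on single libraries: without the LN-229 or the T98G siControl library the LN-229 call was lost, with adjusted p of 0.115 and 0.0655. The U251 call was lost without either T98G library (adjusted p = 0.115 and 0.0557) or without the U251 siHOTAIRM1 library (adjusted p = 0.178).

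EMP1 alone gave no difference between cell lines that passed the test with all 6 libraries on the deposited CPM scale. Its siControl levels were 32.6 CPM in LN-229, 54.9 CPM in T98G and 26.4 CPM in U251, and its siHOTAIRM1 levels were 19.5, 13.4 and 16.1 CPM in the same order. T98G held both the highest and the lowest EMP1 level of the 6 libraries, so the lines overlapped in every pair. The differences in log2(CPM + 1) were -0.11 for LN-229 minus T98G, 0.28 for LN-229 minus U251 and 0.39 for T98G minus U251 (SE 0.21 each; limma adjusted p = 0.674, 0.263 and 0.107). In the siControl libraries alone, the difference of LN-229 minus T98G was -0.73 and that of T98G minus U251 was 1.03, with 1 library per line and no test. Without the T98G siHOTAIRM1 library the EMP1 difference was -0.74 for LN-229 minus T98G and 1.02 for T98G minus U251. Without the U251 siHOTAIRM1 library it was 0.61 for LN-229 minus U251 and 0.72 for T98G minus U251. With 1 library left out, a line difference is no longer separate from the knock-down change, on which the family was chosen. No test is therefore read from these fits.

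Counted over the family, 2 of 4 members passed the test between LN-229 and T98G, 2 of 4 between LN-229 and U251, and 3 of 4 between T98G and U251. Of all 14294 genes, 54.9%, 60.6% and 64.2% passed in these 3 comparisons. The cell lines differed in a majority of their genes, and the 7 of 12 calls among the members lie near that background. The 2 libraries of a line share a culture background and differ in their siPOOL. The labels do not say that they came from separate cultures, so these p-values do not measure the spread between cultures. They also do not rest on a gene's own libraries alone, because limma draws the spread of each gene toward a trend over all tested genes.

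**Figure D1:**
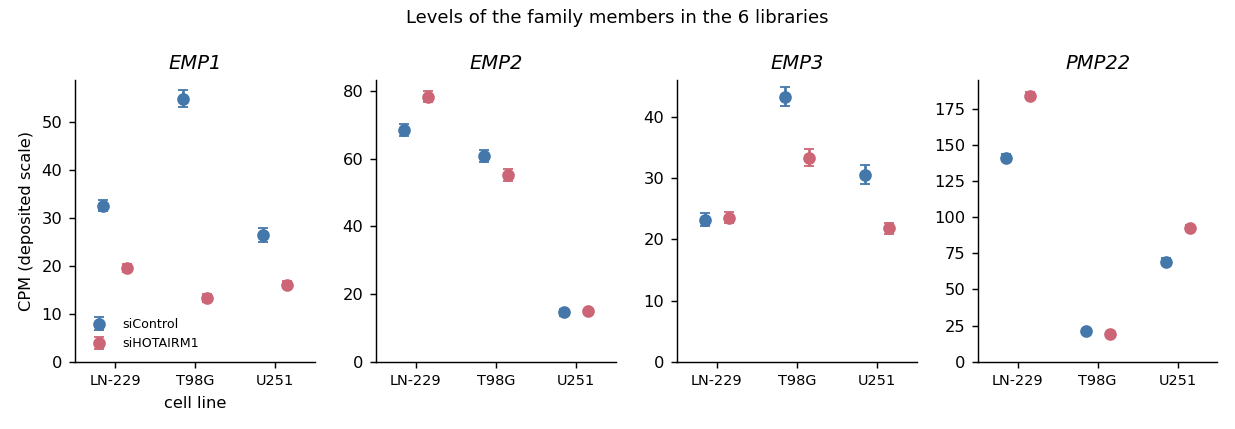
Levels of EMP1, EMP2, EMP3 and PMP22 in CPM (vertical axes, linear from 0 and scaled per gene) in each cell line (horizontal axis), siControl in blue and siHOTAIRM1 in red, with bars for 95% Wilson counting intervals. EMP1 was lower in all 3 siHOTAIRM1 libraries, while EMP2 and PMP22 were separated mainly by cell line, with U251 lowest for EMP2 and T98G lowest for PMP22.

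PMP22 is best known from Schwann cells, and the markers of Schwann cells and oligodendrocytes were read beside it. SOX10, a transcription factor of these cells, was at 81.5 CPM in LN-229 siControl and 112 CPM in LN-229 siHOTAIRM1, but at no more than 0.0767 CPM in the other 4 libraries. MBP, a gene of compact myelin, stayed under 1 CPM in LN-229 and reached 4.92 and 5.84 CPM in U251. PMP22 was thus at 69.2 and 92.8 CPM in U251 with SOX10 near 0, and the part of SOX10 and MBP in its level was not tested.

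Levels of different genes were compared per kilobase, because the longest coding transcripts of EMP1 (5913 bases), EMP2 (5097 bases) and PMP22 (4161 bases) are several times as long as that of EMP3 (761 bases). On the longest coding transcript of each gene, EMP3 was highest in the 4 libraries of T98G and U251, at 28.7 to 57.0 CPM per kb. PMP22 was highest in LN-229, at 34.0 CPM per kb in siControl and 44.3 CPM per kb in siHOTAIRM1, just above EMP3 with 30.5 and 31.0 CPM per kb. EMP1 was at 2.26 to 9.29 CPM per kb and EMP2 at 2.86 to 15.4 CPM per kb. The order of the 2 leading genes depended on the length used for PMP22, which has 23 coding transcripts. With the canonical transcripts (1828 bases for PMP22 and 649 for EMP3), PMP22 led EMP3 in LN-229 by 77.3 to 35.8 CPM per kb in siControl and by 101 to 36.3 CPM per kb in siHOTAIRM1. In U251 it then led only in siHOTAIRM1, by 50.8 to 33.6 CPM per kb. With the union of all exons as the length, EMP3 led in LN-229 siControl too, by 14.1 to 13.6 CPM per kb, and PMP22 led only in LN-229 siHOTAIRM1, by 17.7 to 14.3 CPM per kb. By length on the canonical transcript, EMP3 made up 67.0 and 68.5% of the family's total in T98G, and PMP22 58.5 and 64.7% in LN-229.

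**Figure D2:**
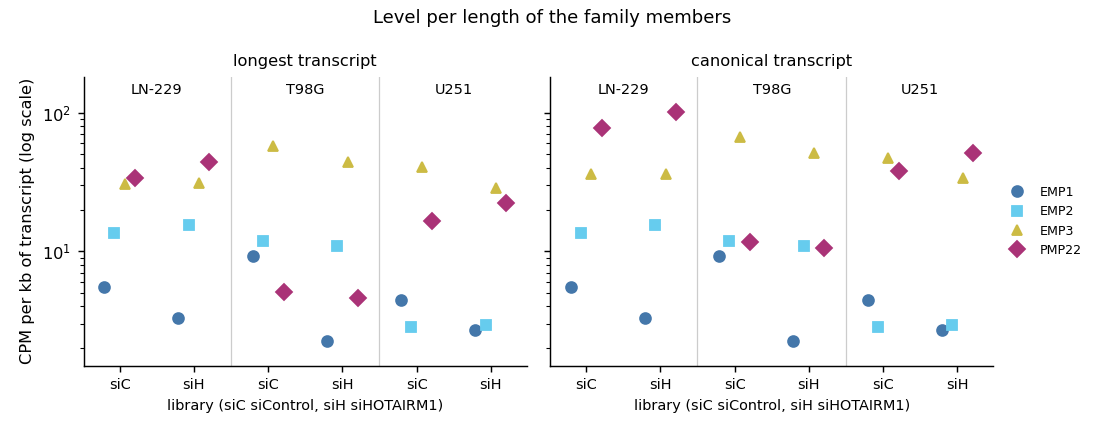
Level per length of the 4 members (vertical axis, CPM per kb of transcript, log scale) in the 6 libraries (horizontal axis), with the longest coding transcript as the length on the left and the canonical transcript on the right. EMP3 leads in T98G and PMP22 in LN-229 with both lengths plotted (not with the union of exons, where EMP3 leads in LN-229 siControl), and U251 siHOTAIRM1 changes its leading gene with the length.

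The study asked what is lost when HOTAIRM1 is silenced, and the change of each member from siControl to siHOTAIRM1 was read within each cell line. EMP1 was lower after knock-down in 3 of 3 lines. Its level differed by -40.2% in LN-229 (95% counting interval -43.5 to -36.7%), by -75.6% in T98G (-77.3 to -73.9%) and by -38.9% in U251 (-43.2 to -34.4%). On the log2(CPM + 1) scale these changes were -0.71, -1.96 and -0.68. The T98G change was the 2nd lowest of 14294 genes in that line, while the LN-229 change ranked 35th and the U251 change 832nd from the lowest. The mean over the lines was -1.12 (limma SE 0.17, SD over lines 0.73, n = 3). The limma SE leans on the other genes, so the SD is what gives the spread of EMP1 between the lines.

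EMP2 was nearly level in each line. It differed by 14.3% in LN-229 (10.6 to 18.2%), by -9.33% in T98G (-13.2 to -5.32%) and by 2.45% in U251 (-6.10 to 11.8%), where the counting interval included 0. The mean log2 change was 0.03 (SE 0.14, SD 0.16, n = 3), smaller than the spread between the lines.

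EMP3 differed by 1.34% in LN-229 (-4.43 to 7.47%), by -23.0% in T98G (-27.0 to -18.8%) and by -28.7% in U251 (-33.2 to -24.0%). Its mean log2 change was -0.27 (SE 0.14, SD 0.26, n = 3). The counting interval included 0 in LN-229 only.

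PMP22 was higher after knock-down in the lines that carried most of it, by 30.3% in LN-229 (27.4 to 33.3%) and by 34.0% in U251 (29.0 to 39.3%). In T98G it differed by -9.49% (-15.9 to -2.62%). The mean log2 change was 0.22 (SE 0.15, SD 0.31, n = 3), again within the spread between the lines. The summed CPM of the 4 members went from 266 to 306 in LN-229, from 180 to 121 in T98G and from 141 to 146 in U251.

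In the fit with the cell line as block, 1 of the 4 members, EMP1, was among the 286 genes called between the conditions, which were 2.0% of those tested (1.59% lower and 0.413% higher after knock-down). Since this contrast chose the family, nothing is read from that count. Over all genes, 28.1% were lower in all 3 lines and 11.4% were higher in all 3, and among the members EMP1 was lower in all 3 and the other genes changed sign between lines. EMP1 was not called after centring or rescaling, and the call rested on the line with the largest change: without T98G the mean was -0.70 and no gene of the table was called by limma, although 1206 had an unadjusted p under 0.05.

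The direction of the smaller changes depended on the scale. Once the T98G median of all genes was subtracted, the EMP2 and PMP22 changes there turned from -0.14 each to 0.05 each, and EMP3 kept -0.18 of its -0.37. When the listed genes of each library were rescaled to sum to the full CPM scale, the log2 ratios of PMP22 were 0.34 (LN-229), 0.08 (T98G) and 0.69 (U251), and those of EMP2 were 0.15, 0.09 and 0.30. Those of EMP3 were then -0.03, -0.15 and -0.22, with the LN-229 value on the other side of 0. EMP1 stayed lower in every line on each scale, at -0.79, -1.81 and -0.45 after rescaling. The U251 siControl library, with the largest sum over listed genes and the lowest depth, was the reference of all U251 changes, and its part in them was not tested.

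**Figure D3:**
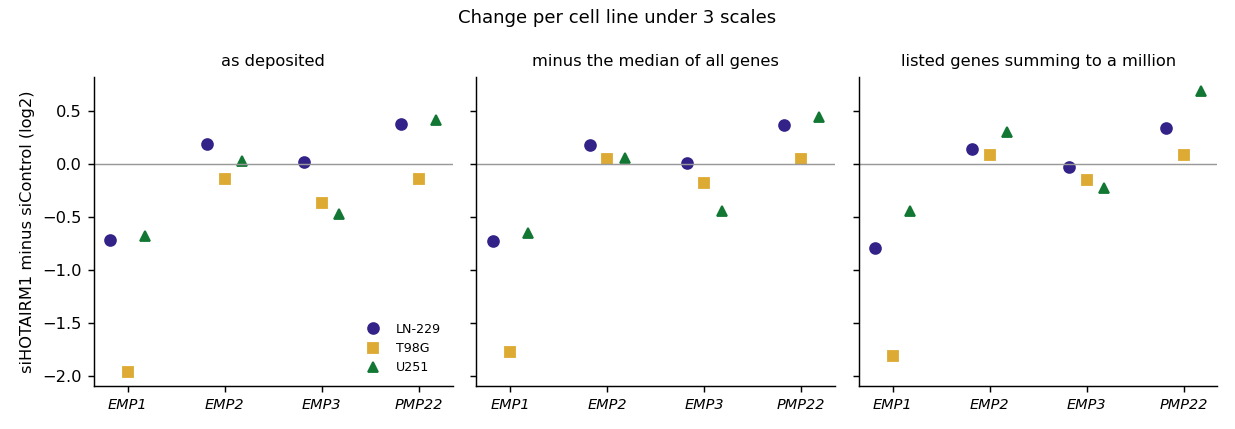
Change from siControl to siHOTAIRM1 (vertical axis, log2) of the 4 members (horizontal axis) in LN-229 (circles), T98G (squares) and U251 (triangles), as log2(CPM + 1) on the left, minus the median over all genes in the middle, and as log2 ratios after the listed genes were rescaled to the full CPM scale on the right. EMP1 lies below 0 in every line and panel, with T98G lowest, whereas the T98G squares of EMP2 and PMP22 move from below to above 0.

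No gene of the wider superfamily was called. Of 51 listed genes with the PMP22/claudin fold besides the members, 50 were in the table and 11 passed the expression filter of a mean of 1 CPM, most claudins being too low. None of the 11 passed the test in the knock-down contrast, their median change was 0.09 against -0.07 for all genes, and their changes ran from -0.27 to 0.28. By line, the median of the 11 was 0.15 for LN-229, -0.20 for T98G and 0.16 for U251. In the limma fit, 2 were lower in all 3 lines: CLDND1 (mean log2 change -0.27, adjusted p = 0.314) and PERP, a p53 target of desmosomes (-0.25, adjusted p = 0.357). PERP was at 114 CPM in T98G siControl and 81.5 CPM in T98G siHOTAIRM1, yet at 0.0384 and 0.0199 CPM in U251, which is at or under the level of 3 reads.

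The proteins that bind family members or act with them were all expressed. None of 14 passed the test, and their median change was -0.22 against -0.07 for all genes. In all 3 lines, 5 were lower and 1 was higher, which is near the shares of all genes (28.1% and 11.4%). TGFBR2, a receptor of TGF-beta, had the largest mean change (-0.48, SE 0.16; limma adjusted p = 0.0965) and went from 102 to 49.4 CPM in U251, from 52.6 to 42.7 CPM in LN-229 and from 59.0 to 54.4 CPM in T98G. CAV1, the main protein of caveolae, had a mean log2 change of -0.35 (limma adjusted p = 0.228) and CD44, the hyaluronan receptor, one of -0.32 (limma adjusted p = 0.394). The 10 genes of chaperones and degradation factors that handle PMP22 in the endoplasmic reticulum had a median of -0.07, the same as all genes, and none passed the test. DERL1, a factor of the export of misfolded proteins, was the only one lower in all 3 lines (-0.23; limma adjusted p = 0.399).

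Among 23 myelin genes and their regulators, 15 passed the filter, none passed the test, and the median change was 0.04. NAB1, a co-factor of the EGR transcription factors, had a mean of 0.24 (limma adjusted p = 0.373), and MPZL1 one of -0.17 (limma adjusted p = 0.560).

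The tetraspanins, a separate family that also crosses the membrane 4 times, gave the only calls among the lists, with 2 of the 21 genes past the filter out of 33 (9.52%, against 2.0% of all genes). TSPAN9 was called higher, with a mean log2 change of 0.64 (SE 0.14; limma adjusted p = 0.0121), and it rose from 4.79 to 7.90 CPM in LN-229, from 4.68 to 7.04 CPM in T98G and from 7.41 to 13.7 CPM in U251. CD82, a suppressor of metastasis, was called lower, with a mean of -0.56 (SE 0.15; limma adjusted p = 0.0461). It fell from 27.0 to 13.6 CPM in T98G and from 5.44 to 2.89 CPM in U251, and was at 0.759 and 0.731 CPM in LN-229. The CD82 call was lost after centring (limma adjusted p = 0.192), after rescaling (0.264) and without T98G (0.590) or U251 (0.228). The TSPAN9 call held after centring (limma adjusted p = 0.0470) and was lost after rescaling (0.0673) and when LN-229 (0.0805), T98G (0.549) or U251 (0.102) was left out, with the mean change above 0 each time. TSPAN33 had a mean of 0.44 (SE 0.13; limma adjusted p = 0.0657). The tetraspanin median was -0.10, and 6 genes were lower and 2 higher in all 3 lines, against 28.1% and 11.4% of all genes.

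**Figure D4:**
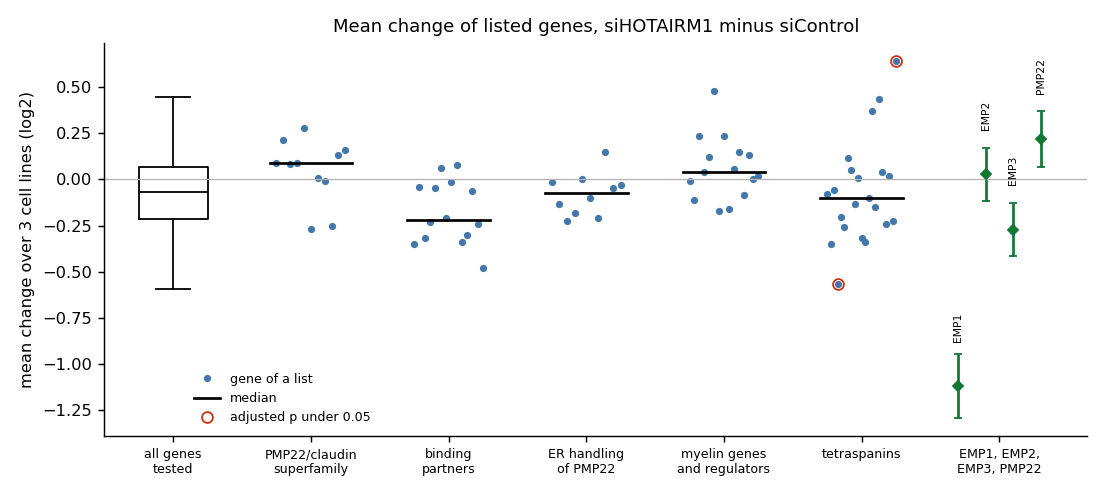
Mean change over the 3 cell lines (vertical axis, log2, siHOTAIRM1 minus siControl) of the genes past the filter in 5 lists (points, with the list's median as a bar), of all 14294 genes (box for the quartiles, whiskers from the 1st to the 99th percentile) and of the 4 members (diamonds with the standard error). TSPAN9 and CD82, circled, are the only listed genes with a limma adjusted p under 0.05. The members were chosen with this contrast known, so nothing is read from the place of EMP1, at -1.12.

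Within the family, EMP1 and EMP3 had the closest patterns over the 6 libraries, with a root mean square difference of 0.56 in centred log2(CPM + 1). The other 5 pairs ran from 0.99 (EMP2 and EMP3) to 1.60 (EMP2 and PMP22). The genes nearest to EMP1 among all those tested were LAMP1, a lysosomal membrane glycoprotein (0.29), the carbonyl reductase CBR3 (0.36) and SEC23A, a subunit of the COPII coat (0.36). LAMP1 went from 89.3 to 42.4 CPM in LN-229, from 96.4 to 45.3 CPM in T98G and from 57.4 to 35.0 CPM in U251, and so shared with EMP1 a lower level in every siHOTAIRM1 library but not its excess in T98G.

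The other members had nearer companions. EMP2 was matched by ZNF747 (0.04), TMEM229B (0.05) and GPR63 (0.10), which were at or below 0.376 CPM in U251. At such low levels the added 1 CPM compresses differences, so these matches are not matches in fold. GPR63 was at 3.59 CPM in LN-229 siControl and 0.0192 CPM in U251 siControl, against 68.6 and 14.6 CPM for EMP2. EMP3 was matched by CEP57, a centrosomal protein, by CYB561A3 (both 0.05) and by IFT57, a protein of intraflagellar transport (0.07). PMP22 was matched by DBNDD1 (0.06), APBA1 (0.13) and NCR3LG1 (0.17), all lowest in T98G. The same limit holds for APBA1, at 5.21 CPM in LN-229 siControl and 0.0580 CPM in T98G siControl, against 141 and 21.3 CPM for PMP22. Only 4 of these 12 genes (ZNF747, CEP57, CYB561A3 and DBNDD1) were also among the 3 highest Pearson correlations of their member, and the 6 libraries come from 3 lines, so the likeness rests on few points.

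The nearest tested genes on either side of each member on the chromosome gave no call. Of these 8 neighbours, the closest was TMEM143, at 1803 bases from EMP3, with a mean log2 change of 0.20 (limma adjusted p = 0.353). The neighbours of EMP1, HTR7P1 and RN7SKP162, are pseudogenes at 191893 and 463601 bases, with mean changes of 0.24 and -0.22 (limma adjusted p = 0.297 and 0.411). The kit does not mark the strand, and antisense genes overlap exons of EMP2 (2643 bases), EMP3 (463 bases, by ODAD1) and PMP22 (up to 1808 bases for 1 gene), so reads from the other strand cannot be told apart there. No annotated gene overlaps EMP1.

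HOTAIRM1 has been proposed to bind the microRNAs miR-17-5p, miR-129-5p and miR-495-3p, and the 3′ ends of the members were searched for matches to their seeds. The mature sequences, from the RefSeq table, are printed with the seed (bases 2 to 8) in capitals.
miR-17-5p: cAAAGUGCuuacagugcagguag
miR-129-5p: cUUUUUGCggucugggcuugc
miR-495-3p: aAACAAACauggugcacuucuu
The seed match of miR-17-5p, GCACTTT, was searched on the transcript strand and is in 21.2% of 19229 canonical 3′UTRs. It was in neither EMP1, EMP3 nor PMP22, and it was 2 times in the 4483-base 3′UTR of EMP2. Of 750 3′UTRs within 10% of that length, 52.3% hold it at least 1 time and 19.5% as often as EMP2.
For miR-129-5p the match GCAAAAA was 4 times in the 5250-base 3′UTR of EMP1, and 1 time each in EMP2 and PMP22. It is in 15.9% of all 3′UTRs and in 46.3% of the 574 within 10% of the length of EMP1, of which 1.39% hold it as often or more. The pair of EMP1 windows in which the match is followed by a further A is printed, with match and A in capitals.
EMP1, chr12:13216488-13216517, plus strand: gctgtcttagtGCAAAAAAcatacttacat
EMP1, chr12:13216984-13217013, plus strand: aaacctcttagGCAAAAAAtggaacttcat
The match of miR-495-3p, GTTTGTT, is in 20.3% of all 3′UTRs and was only in PMP22, as 2 overlapping copies. Of 1055 3′UTRs within 10% of the length of that of PMP22, 15.5% hold it and 2.37% hold it as often or more. The miR-129-5p and miR-495-3p searches were added after the files were seen. The shares allow for length and not for base composition, and no link between matches and changes was tested. The 83-base 3′UTR of EMP3 held none of the 3 matches. A match is a description of letters and not a measured site, and no microRNA was measured in these libraries.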

How the data were processed

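Total RNA (500 ng) of 3 cell lines under siControl or siHOTAIRM1 was made into unstranded TruSeq v2 libraries and sequenced for 101 cycles. In Partek Flow, the authors trimmed 13 bases (5′) and 1 base (3′), aligned to hg38 with STAR 2.4.1d, then Bowtie 2, and quantified on Ensembl 84 by expectation-maximization. The authors deposited CPM with 0.0001 added. No library's listed values reach the full CPM scale, so the scale includes reads outside the listed genes.

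The worth of 1 read was taken from the steps of low values. Of the values under 50 reads, 85.3 to 87.0% were whole within 0.02, so no count test was run. Genes averaging 1 CPM or more (14294) were fitted as log2(CPM + 1) in limma 3.58.1 under R 4.3.3, with its trend option, cell line and siPOOL as terms, and Benjamini-Hochberg adjustment over all tested genes, threshold 0.05. The pairing comes from the cell line in the labels. The script was tested on simulated data. Proteins were aligned with BLOSUM 62 (gap open 11, extend 1).

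The members and lists were chosen with earlier results of these data known. Genes named are the members, HOTAIRM1, called genes of each list and its 3 largest changes in 1 direction in all 3 lines, the 3 nearest patterns and the chromosomal neighbours. The miR-129-5p and miR-495-3p searches and the canonical transcript lengths were added after the files were seen. Alternatives were other scalings, pseudocounts, filters, terms and libraries left out. Some genes of the lists, fitted and counted with the others, and 2 sequence windows are not reported here.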

Additional observations from a re-analysis of the deposited data

Results flagged for a closer look

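The changes of EMP2, EMP3 and PMP22 had different signs in different cell lines, and with 1 library per line and condition the difference between lines was not tested. EMP2 was lower in T98G and higher in LN-229, with changes 0.33 apart on the log2(CPM + 1) scale, and its counting interval in U251 included 0. EMP3 was lower in T98G and U251, with changes up to 0.49 apart from LN-229, where its change of 0.02 had a counting interval that included 0 and was below 0 after rescaling. PMP22 was higher in LN-229 and U251 and lower in T98G, with changes 0.55 apart. With each line's median over all genes subtracted, EMP2 and PMP22 were above 0 in 3 of 3 lines.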

How the results depend on the processing

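The knock-down contrast called 286 genes by limma, 0 without the cell line block (no pairing; 29 at an unadjusted p under 0.05), 41 after centring, 25 after rescaling the listed genes, 683 with a pseudocount of 0.1, 0 without the filter (2568 unadjusted), 666 with the filter of at least 1 CPM in all libraries of 1 condition, and 0 with a paired test of each gene alone (896 unadjusted). The share of higher genes among the calls was 20.6%, 36.6% after centring and 40.0% after rescaling. Leaving out a cell line gave 0 (T98G) to 270 genes, and 149 without U251. The knock-down contrast chose the family, so nothing is read from the calls of its members, which are listed as a record only. EMP1 was called with the pseudocount of 0.1, the filter per condition, and without LN-229 or U251, and under none of the other alternatives. Its mean change was -1.34 to -0.70 when a line was left out, that of EMP2 -0.053 to 0.11, reversed without LN-229, that of EMP3 -0.42 to -0.17 and that of PMP22 0.12 to 0.40. The other 27 values of member changes kept their sign and moved by less than the SD over lines.

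Between cell lines, 107 of 132 member values kept direction and call. Values from the siControl libraries alone, which have no call, were counted as kept when they held direction and moved by less than the SE. Leaving out 1 library gave EMP1 differences of -0.74 to 0.52 (LN-229 minus T98G), -0.052 to 0.61 (LN-229 minus U251) and -0.24 to 1.02 (T98G minus U251), and EMP3 differences of -0.90 to -0.46, -0.36 to 0.081 and 0.39 to 0.69. EMP2 ran over 0.21 to 0.46, 2.12 to 2.36 and 1.78 to 2.03, and PMP22 over 2.66 to 3.20, 0.85 to 1.15 and -2.20 to -1.66. After rescaling, EMP3 for LN-229 minus U251 was 0.21 (adjusted p = 0.224) and EMP1 for T98G minus U251 passed the test at 0.78 (adjusted p = 0.0254). Without the knock-down term, EMP3 for T98G minus U251 stayed at 0.54 and lost its call (adjusted p = 0.0518). In siControl alone, with no test, EMP1 was -0.73 for LN-229 minus T98G and 1.03 for T98G minus U251, EMP3 was -0.87 for LN-229 minus T98G and -0.38 for LN-229 minus U251, and PMP22 was 2.67 for LN-229 minus T98G and -1.65 for T98G minus U251. Calls between LN-229 and T98G were 7851 and 5107 to 8046 with 1 library left out. Of 12 nearest genes, 4 were shared with the highest correlations. Rescaling moved all 24 levels of members outside their counting intervals. The call of HOTAIRM1 was also lost without the filter (adjusted p = 0.665), without the block (0.999998) and in the paired test (0.637). The causes were not tested.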
